A study of Homo sapiens with 12 samples.

Results

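The ATF4 and amino acid response genes are 43 listed human genes: transcription factors of the amino acid response, their feedback outputs, enzymes of serine, glycine, folate, proline and cysteine metabolism, amino acid transporters, and cytosolic aminoacyl-tRNA synthetases. They were chosen by gene symbol, and each gene was represented by its brightest probe set that names a single gene. Of the 43, 41 were measured that way, among 19775 genes on the arrays. GPT2, which makes alanine, was named by no probe set in the platform annotation used, and MARS1, the methionyl-tRNA synthetase, only by probe sets that name several genes.

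The samples were 12 Affymetrix expression arrays of cultured cells, 3 in each of 4 groups: MMS1 cells with a miR-16 sponge, MMS1 cells with a control sponge, RPMI8226 cells with a miR-16 sponge, and RPMI8226 cells with a control sponge. A sponge is a transcript with repeated binding sites that occupies a microRNA, and the control arrays carry a mock sponge. Every group, controls included, had been stably transduced with a GFP lentivirus, sorted by flow cytometry and expanded, so each group is 1 sorted population and not a set of clones. The labels give both lines as multiple myeloma, a cancer of plasma cells, and the study sought genes that change when miR-16 is lowered, as in myeloma with loss of chromosome arm 13q. They describe parallel flasks lysed together and do not tie the 3 arrays of a group to separate flasks, so p-values here measure only the spread between these arrays.

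When an amino acid runs short, uncharged tRNA activates the kinase GCN2 (EIF2AK4), which phosphorylates the translation factor eIF2. General translation then falls while the mRNA of ATF4 is translated more, through short reading frames ahead of its coding sequence. ATF4 binds DNA with a C/EBP partner at C/EBP-ATF response elements and activates genes that make, import and charge amino acids. PERK (EIF2AK3), HRI (EIF2AK1) and PKR (EIF2AK2) feed other stresses into the same step. Since ATF4 is controlled mostly at translation, its mRNA level says little about its protein.

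The molecule that the sponge binds, miR-16-5p, is printed with its seed (bases 2 to 8) in capitals, as in RefSeq on GRCh38.p14; both genomic copies, MIR16-2 at chr3:160404754-160404775 on the plus strand and MIR16-1 at chr13:50049027-50049048 on the minus strand, give this sequence.
hsa-miR-16-5p: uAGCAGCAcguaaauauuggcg

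The core of the response element, TGATGNAA on either strand (TTNCATCA when read on the other strand), was searched in RefSeq promoter windows that run from 250 bases before to 50 bases after each annotated start. A window was found for 34 of the 43 genes, and 11 of these (32.4%) held the core, against 3.62% of all 35116 windows. It was in 6 of 10 windows of the listed tRNA synthetases and in 2 of 7 windows of the listed transporters. Of genes not on the list, it was in 0 of 9 windows of other cytosolic synthetases and in 1 of 14 of mitochondrial synthetases. Other amino acid transporters held it in 2 of 11 windows, further reported outputs of ATF4 in 2 of 11, and other folate and amino acid enzymes in 2 of 16. For eIF2 kinases and related genes it was 1 of 13. The matches are shown because this element is where ATF4 is known to bind, and the choice by symbol did not use it directly. Most of the windows searched, 23 of 34, did not hold it. The capitals mark the core, the sequence is that of the gene's own strand, 5′ to 3′, on GRCh38.p14, and a match is not evidence of binding.
ASNS (chr7:97872458-97872487, minus strand): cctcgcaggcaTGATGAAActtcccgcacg
ATF3 (chr1:212565205-212565234, plus strand): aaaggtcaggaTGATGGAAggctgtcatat
CHAC1 (chr15:40953251-40953280, plus strand): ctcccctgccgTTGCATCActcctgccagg
SLC7A1 (chr13:29595663-29595692, minus strand): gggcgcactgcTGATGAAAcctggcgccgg
SLC3A2 (chr11:62881725-62881748, plus strand): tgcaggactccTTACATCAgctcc
AARS1 (chr16:70289675-70289704, minus strand): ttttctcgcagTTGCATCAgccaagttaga
CARS1 (chr11:3057407-3057436, minus strand): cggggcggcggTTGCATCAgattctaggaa
IARS1 (chr9:92293692-92293721, minus strand): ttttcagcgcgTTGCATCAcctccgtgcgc
MARS1 (chr12:57488053-57488082, plus strand): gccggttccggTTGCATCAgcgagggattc
NARS1 (chr18:57621804-57621833, minus strand): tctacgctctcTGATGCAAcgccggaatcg
TARS1 (chr5:33440956-33440985, plus strand): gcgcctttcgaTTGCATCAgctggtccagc

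In 6 of the 11 genes, namely CHAC1, AARS1, CARS1, IARS1, MARS1 and TARS1, the match was the same word, TTGCATCA. The NARS1 match, TGATGCAA, is that word read on the other strand. The core began 68 bases before the start of ASNS, the asparagine synthetase gene whose amino acid response element is the classical example. In CHAC1, ATF3 and AARS1 it began 209, 191 and 187 bases before the start, and in the other genes within 38 bases of it.

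**Figure D1:**
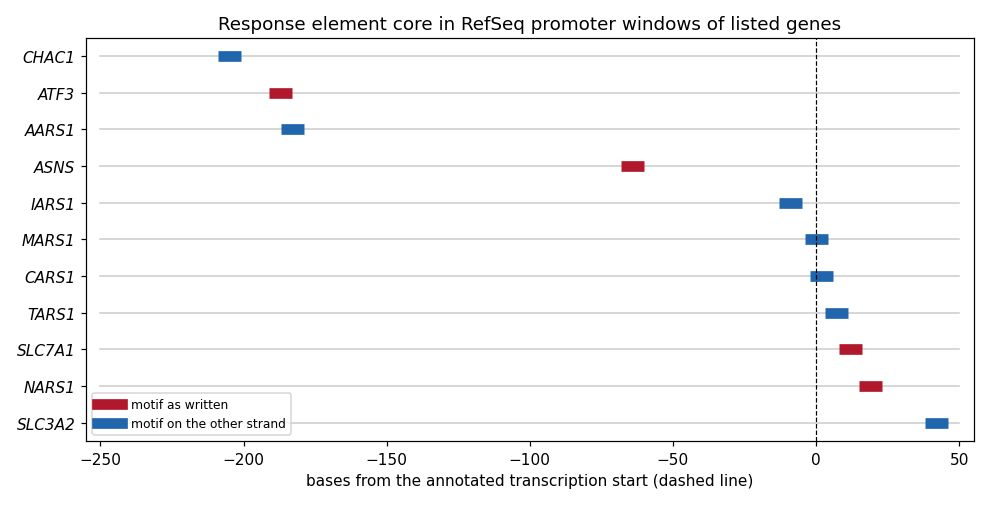
Position of the response element core in the promoter windows of the 11 listed genes that hold it. The x axis gives bases from the annotated transcription start, grey lines are the searched windows, and colour gives the strand of the match; 7 of the 11 matches begin within 38 bases of the start, and CHAC1, ATF3, AARS1 and ASNS have theirs further upstream.

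Levels are log2 signals as deposited, which ran from a floor of 4.0 to 14.71, with array medians of 5.8 to 5.9. For every array 15 µg of total RNA and 2 rounds of amplification are recorded. The listed genes were among the brighter ones: the median member had a mean log2 signal of 9.78, against 6.44 for the median gene, 32 of 41 were above the upper quartile of all genes (7.62), and 23 were in the top 5%. Probe sets differ in how well they bind, so these ranks describe signals and not molecules. GARS1 and ASNS were the brightest by rank (percentile 99.3), and SLC6A9, the glycine transporter, the dimmest (percentile 23.3). One array, MMS1 miR-16 sponge replicate 1, had a low 18S control signal (7.84, against 9.56 to 11.14 on the other arrays), and counts without it are given below.

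The labelled cell type was not borne out by its markers. Of 10 plasma cell genes measured, only SDC1 (8.90) and XBP1 (8.51) were above the upper quartile, 6 were below the median gene, and JCHAIN (4.20), TNFRSF17 (4.46) and CD38 (4.91) were close to the floor. All 7 erythroid genes measured were above the upper quartile, with the embryonic globin HBE1 at 14.16 and the red cell transcription factor GATA1 at 9.56. The groups are therefore called arrays labelled MMS1 and arrays labelled RPMI8226, shortened below to MMS1 and RPMI8226 arrays. In such bulk samples, fewer cells of a kind and less RNA per cell cannot be told apart.

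The first question was whether the genes move when the miR-16 sponge is present. In MMS1 arrays the list split: 6 members rose with the miR-16 sponge (SESN2, CTH, GARS1, SLC7A11, PHGDH and SLC3A2), 5 fell (ATF5, SLC7A1, CBS, IARS1 and SLC1A5), and 30 did not pass an adjusted p of 0.05. Over all 19775 genes, 4.34% rose and 8.08% fell in that comparison. Among the 4944 genes above the upper quartile of signal 8.56% rose and 13.9% fell, against 5 and 4 of the 32 members there, so the share of members that fell was near that of bright genes in general. The median effect was 0.15 log2 over the 41 members and -0.04 over all genes. In RPMI8226 arrays 0 members passed in either direction by limma, where 0.0152% of all genes rose and 0.202% fell; 10 members had an unadjusted p under 0.05, as had 2829 genes. The MMS1 list was not in a single direction for any role with more than 1 call: enzymes, transporters and synthetases each held members that rose and members that fell.

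**Figure D2:**
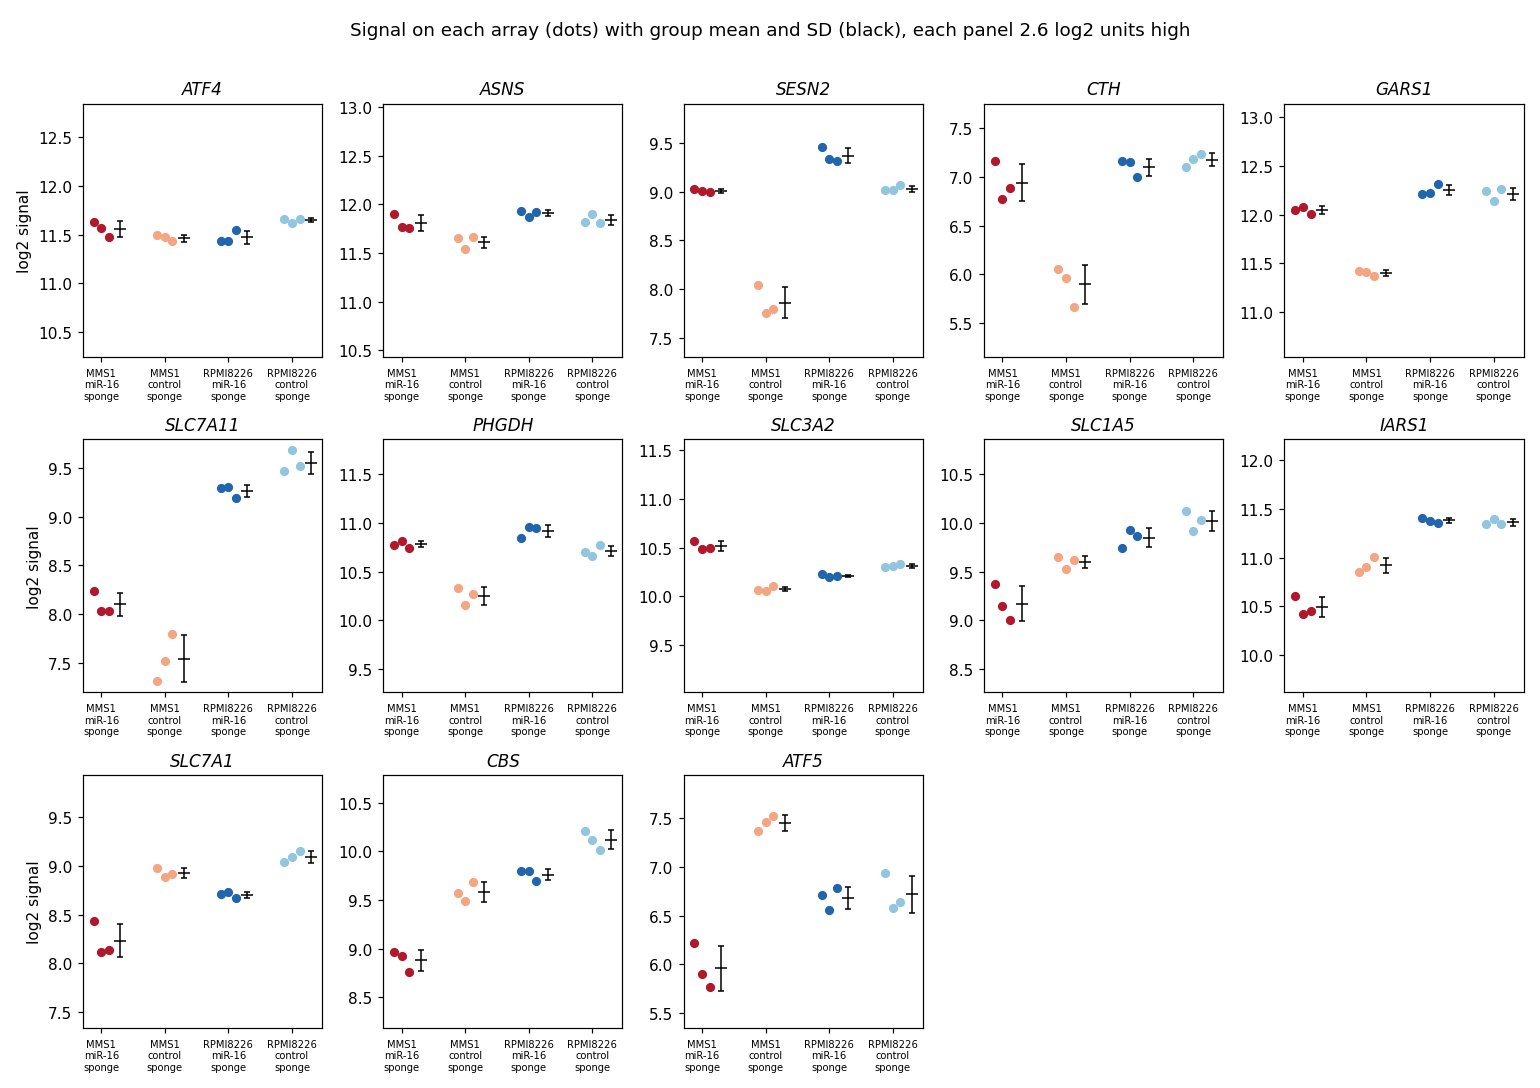
Deposited log2 signal of ATF4, ASNS and the 11 members that passed in MMS1 arrays, by group, with 3 arrays each as dots and the mean and SD in black. Each panel spans 2.6 log2 units; SESN2, CTH and GARS1 lie higher in the MMS1 miR-16 sponge arrays than in the MMS1 control arrays, ATF5 and CBS lie lower, and ATF4 and ASNS differ little among groups.

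Among the 6 regulators, ATF5 was the one that changed. ATF5 is a bZIP factor related to ATF4 that, like it, is translated more when eIF2 is phosphorylated. It read 6.22, 5.90 and 5.77 in MMS1 miR-16 sponge arrays, against 7.37, 7.46 and 7.52 in MMS1 control arrays, and 6.71, 6.56 and 6.78 in RPMI8226 miR-16 sponge arrays, against 6.94, 6.58 and 6.64 in RPMI8226 control arrays. The MMS1 groups did not overlap, and the RPMI8226 groups did. The MMS1 difference was -1.49 log2 (95% interval -1.78 to -1.20), which is 2.80-fold lower with the miR-16 sponge (adjusted p = 1.14e-05). In RPMI8226 arrays it was -0.04 (-0.33 to 0.26). A second, dimmer ATF5 probe set gave -1.44 in MMS1 arrays (adjusted p = 1.39e-06), while the remaining 2 did not pass.

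ATF4 itself did not pass in either line. It read 11.63, 11.57 and 11.48 in MMS1 miR-16 sponge arrays, against 11.5, 11.47 and 11.43 in MMS1 control arrays, a difference of 0.10 log2 (-0.10 to 0.29, adjusted p = 0.601). In RPMI8226 miR-16 sponge arrays it read 11.43, 11.43 and 11.55, against 11.66, 11.62 and 11.66 in RPMI8226 control arrays, a difference of -0.18 (-0.37 to 0.02, adjusted p = 0.42). ATF3, a stress-induced repressor, read 8.60, 8.40 and 8.19 in MMS1 miR-16 sponge arrays, against 8.28, 8.08 and 8.16 in MMS1 control arrays, and 8.86, 8.88 and 8.69 in RPMI8226 miR-16 sponge arrays, against 8.73, 8.66 and 8.69 in RPMI8226 control arrays. Its groups overlapped in both lines. ATF3, CEBPB, CEBPG and NUPR1, the other regulators, had MMS1 estimates of 0.17 to 0.34 log2 that did not pass, and RPMI8226 estimates of 0.01 to 0.12. CEBPB, a C/EBP partner of ATF4, came nearest at 0.30 (0.08 to 0.51, adjusted p = 0.0813).

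SESN2 had the largest rise of the list. It encodes sestrin 2, a leucine-binding restrainer of the growth kinase mTORC1. Its signal was 9.03, 9.01 and 9.0 in MMS1 miR-16 sponge arrays, against 8.04, 7.75 and 7.80 in MMS1 control arrays, a rise of 1.15 log2 (0.93 to 1.37) or 2.22-fold (adjusted p = 8.57e-06). The RPMI8226 miR-16 sponge arrays read 9.46, 9.34 and 9.32, against 9.02, 9.02 and 9.07 in RPMI8226 control arrays. These groups did not overlap either, but the difference of 0.34 (0.12 to 0.56) did not pass (adjusted p = 0.167). A second SESN2 probe set gave 1.02 in MMS1 arrays and 0.27 in RPMI8226 arrays.

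The other feedback and stress outputs did not follow SESN2. TRIB3, a pseudokinase that ATF4 induces and that restrains it, read 10.38, 10.25 and 10.41 in MMS1 miR-16 sponge arrays, against 10.47, 10.34 and 10.41 in MMS1 control arrays, a difference of -0.06 (-0.26 to 0.14). For TRIB3, RPMI8226 miR-16 sponge arrays read 11.20, 11.10 and 11.05, against 10.83, 10.79 and 10.80 in RPMI8226 control arrays, with no overlap, and the estimate of 0.31 (0.11 to 0.51) had an adjusted p of 0.169. CHAC1, which degrades glutathione, differed by -0.04 (-0.25 to 0.17) in MMS1 arrays and by 0.21 (0.00 to 0.42) in RPMI8226 arrays. Neither passed. VLDLR, a lipoprotein receptor, and STC2, a secreted glycoprotein, had MMS1 estimates of -0.04 and -0.35 that did not pass.

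In the pathway from 3-phosphoglycerate to serine, PHGDH, its entry enzyme, rose in MMS1 arrays. PHGDH read 10.77, 10.81 and 10.74 in MMS1 miR-16 sponge arrays, against 10.33, 10.16 and 10.27 in MMS1 control arrays, a rise of 0.52 log2 (0.32 to 0.72) or 1.44-fold (adjusted p = 0.00257). In RPMI8226 miR-16 sponge arrays it read 10.85, 10.96 and 10.95, against 10.70, 10.66 and 10.77 in RPMI8226 control arrays, where the estimate of 0.21 (0.01 to 0.41) had an adjusted p of 0.35. The later enzymes of the same pathway did not pass in MMS1 arrays: PSAT1, the transaminase, was at 0.04 (-0.20 to 0.28), and PSPH, the phosphatase, at 0.37 (0.03 to 0.72, adjusted p = 0.18). The mitochondrial folate enzymes SHMT2, MTHFD2 and ALDH1L2, which pass serine's carbon to formate and carbon dioxide, were at 0.15, 0.22 and 0.39, and none passed.

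ASNS, which makes asparagine and is a standard readout of the response, read 11.90, 11.77 and 11.76 in MMS1 miR-16 sponge arrays, against 11.65, 11.54 and 11.66 in MMS1 control arrays. The groups did not overlap, but the difference of 0.19 log2 (-0.01 to 0.39) had an adjusted p of 0.241. ASNS in RPMI8226 miR-16 sponge arrays read 11.93, 11.87 and 11.92, against 11.82, 11.90 and 11.81 in RPMI8226 control arrays. That difference was 0.07 (-0.13 to 0.26).

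The enzymes that turn homocysteine into cysteine moved in opposite directions in MMS1 arrays. CTH, cystathionine gamma-lyase, which releases cysteine, read 7.16, 6.78 and 6.89 in MMS1 miR-16 sponge arrays, against 6.06, 5.96 and 5.67 in MMS1 control arrays. CBS, cystathionine beta-synthase, which acts just before it, read 8.97, 8.92 and 8.76 in MMS1 miR-16 sponge arrays, against 9.57, 9.49 and 9.68 in MMS1 control arrays. Neither pair of groups overlapped. CTH rose by 1.05 log2 (0.77 to 1.32), or 2.07-fold (adjusted p = 0.000153), and CBS fell by 0.70 log2 (interval of the difference -0.92 to -0.48), which is 1.62-fold lower (adjusted p = 0.000693).

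In RPMI8226 arrays CTH read 7.16, 7.15 and 7.0 with the miR-16 sponge, against 7.10, 7.19 and 7.24 with the control, a difference of -0.08 (-0.35 to 0.20). CBS read 9.80, 9.80 and 9.69 in RPMI8226 miR-16 sponge arrays, against 10.21, 10.12 and 10.01 in RPMI8226 control arrays. The CBS groups did not overlap there, yet the estimate of -0.35 (-0.57 to -0.13) did not pass (adjusted p = 0.162). The proline enzymes PYCR1 and ALDH18A1 had MMS1 estimates of 0.09 and 0.18 and RPMI8226 estimates of 0.07 and -0.03, and none passed.

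Of the 8 transporters, 2 rose and 2 fell in MMS1 arrays. Those that rose are partners: SLC7A11 is the cystine-glutamate exchanger (xCT), and SLC3A2 is the heavy chain that carries it to the membrane. SLC7A11 read 8.24, 8.03 and 8.03 in MMS1 miR-16 sponge arrays, against 7.31, 7.52 and 7.79 in MMS1 control arrays, a rise of 0.56 log2 (0.29 to 0.83, adjusted p = 0.0121). SLC3A2 read 10.57, 10.49 and 10.5 in MMS1 miR-16 sponge arrays, against 10.07, 10.06 and 10.11 in MMS1 control arrays, a rise of 0.44 (0.25 to 0.62, adjusted p = 0.00481). The MMS1 groups did not overlap for either gene. The SLC7A11 call was lost when MMS1 control replicate 1 was left out (adjusted p = 0.0614) and when the 6 MMS1 arrays were fitted alone (0.0519).

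In RPMI8226 arrays the estimates of the same genes were below 0 and did not pass. SLC7A11 read 9.29, 9.30 and 9.19 in RPMI8226 miR-16 sponge arrays, against 9.47, 9.68 and 9.52 in RPMI8226 control arrays (-0.29, interval -0.57 to -0.02, adjusted p = 0.331). SLC3A2 read 10.23, 10.20 and 10.21 in RPMI8226 miR-16 sponge arrays, against 10.30, 10.31 and 10.33 in RPMI8226 control arrays (-0.10, interval -0.28 to 0.08).

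SLC7A1, which imports arginine and lysine, fell in MMS1 arrays, to 8.43, 8.12 and 8.14 with the miR-16 sponge, against 8.98, 8.89 and 8.92 with the control. The difference was -0.70 log2 (-0.92 to -0.48), which is 1.63-fold lower (adjusted p = 0.000695). In RPMI8226 miR-16 sponge arrays it read 8.71, 8.73 and 8.67, against 9.04, 9.09 and 9.15 in RPMI8226 control arrays. The groups did not overlap in that line either, and the estimate of -0.39 (-0.61 to -0.17) had the lowest adjusted p of any member there, 0.133. It passed (0.044) when MMS1 miR-16 sponge replicate 1 was left out of the shared fit.

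SLC1A5, the glutamine exchanger, read 9.37, 9.15 and 9.0 in MMS1 miR-16 sponge arrays, against 9.65, 9.53 and 9.62 in MMS1 control arrays, a difference of -0.43 (-0.67 to -0.18, adjusted p = 0.0292). That call was among the least stable: 6 of 19 alternative settings lost it, with adjusted p up to 0.104, and leaving out any 1 of the 3 MMS1 control arrays, or MMS1 miR-16 sponge replicate 2 or 3, was enough. In RPMI8226 arrays SLC1A5 was at -0.17 (-0.42 to 0.07). The leucine carrier SLC7A5, the neutral amino acid carriers SLC1A4 and SLC38A2, and the glycine carrier SLC6A9 did not pass in either line. In RPMI8226 arrays all 8 transporters had estimates below 0, from -0.41 to -0.10, and 3 of them had an unadjusted p under 0.05. Among all 19775 genes 9187 had estimates above 0, and 2829 had an unadjusted p under 0.05. The 7 other cytosolic synthetases measured, which are not on the list, were also below 0 (-0.48 to -0.20). Of these, 6 had an unadjusted p under 0.05.

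Among 11 measured tRNA synthetases, which join amino acids to their tRNAs, GARS1 rose and IARS1 fell in MMS1 arrays. GARS1, for glycine, read 12.05, 12.08 and 12.01 in MMS1 miR-16 sponge arrays, against 11.42, 11.41 and 11.37 in MMS1 control arrays, a rise of 0.65 log2 (0.46 to 0.84) or 1.57-fold (adjusted p = 0.00038). IARS1, for isoleucine, read 10.60, 10.42 and 10.45 in MMS1 miR-16 sponge arrays, against 10.85, 10.90 and 11.01 in MMS1 control arrays, a difference of -0.43 (-0.63 to -0.23, adjusted p = 0.0102). Neither pair of groups overlapped. The IARS1 call was lost without MMS1 control replicate 3 (0.0531) and with the MMS1 arrays alone (0.0599).

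In RPMI8226 arrays GARS1 read 12.21, 12.22 and 12.31 with the miR-16 sponge, against 12.24, 12.14 and 12.26 with the control. IARS1 read 11.41, 11.37 and 11.35 in RPMI8226 miR-16 sponge arrays, against 11.34, 11.40 and 11.34 in RPMI8226 control arrays. Both pairs overlapped, with estimates of 0.03 (-0.16 to 0.22) and 0.02 (-0.19 to 0.22). AARS1 and YARS1, for alanine and tyrosine, had MMS1 estimates of 0.25 and 0.30 with adjusted p of 0.0907 and 0.0919. The other 7 synthetases lay between -0.16 and 0.15 in MMS1 arrays by their brightest probe sets. Dimmer probe sets of TARS1 (0.63, adjusted p = 0.0248) and SARS1 (0.5, adjusted p = 0.0243) rose in MMS1 arrays. The dimmer probe sets of CARS1, EPRS1, LARS1, WARS1 and YARS1 did not pass. With the mean over probe sets AARS1, YARS1, SARS1 and TARS1 passed as higher. Under that setting GARS1 and IARS1 kept their calls, and the remaining synthetases did not pass.

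**Figure D3:**
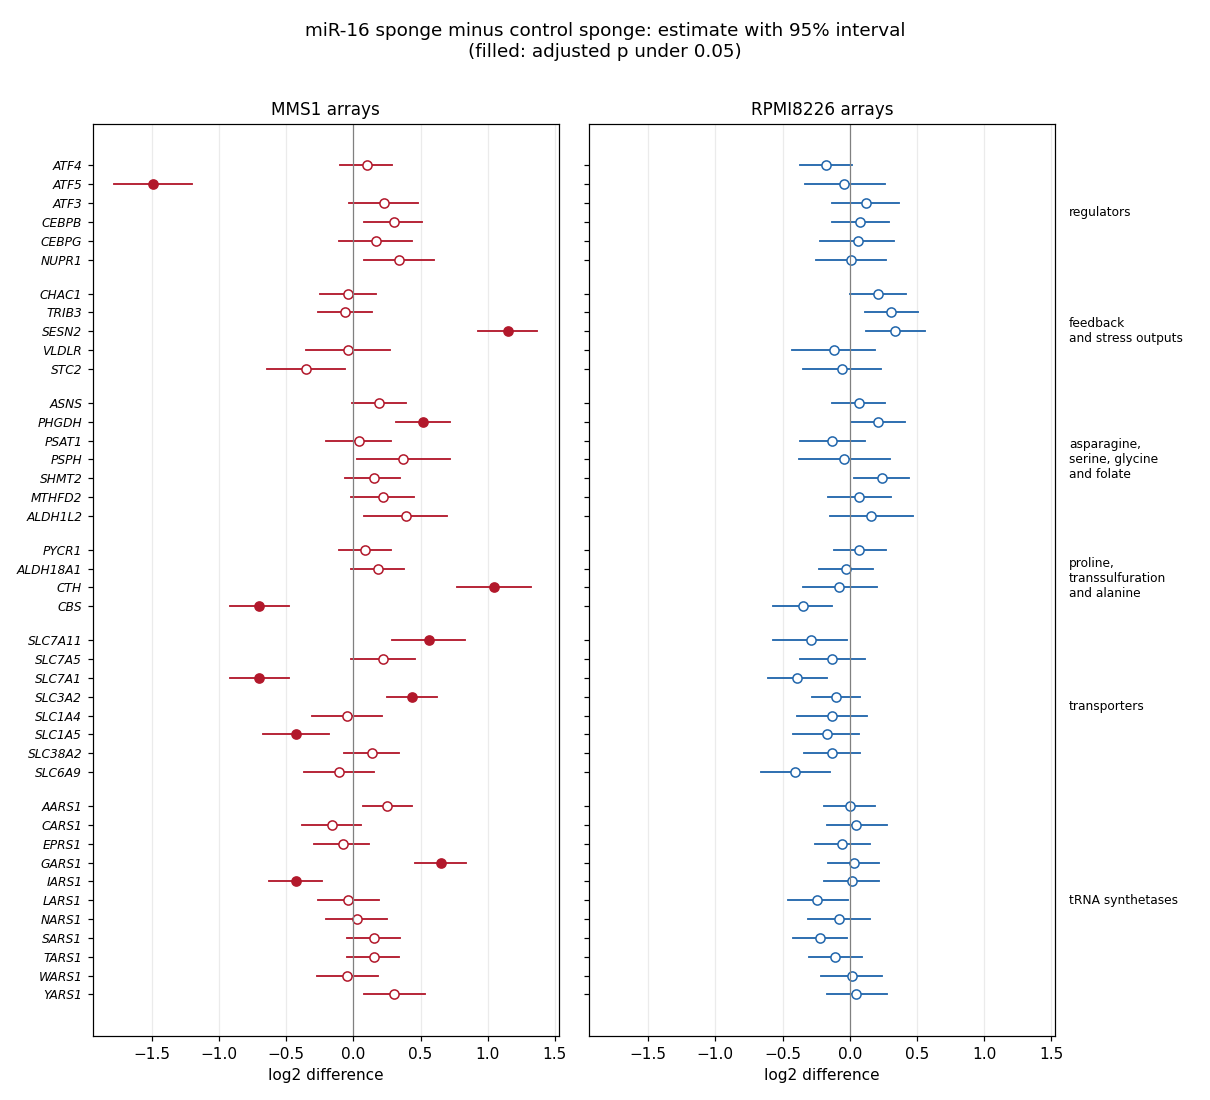
Estimated difference, miR-16 sponge minus control sponge, in log2 units (x axis) for the 41 measured members, ordered by role, with 95% intervals; filled points have an adjusted p under 0.05. In MMS1 arrays 6 filled points lie right of 0 and 5 left of it, with ATF5 at -1.49 and SESN2 at 1.15; in RPMI8226 arrays no point is filled and the estimates lie between -0.41 and 0.34.

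Whether the sponge effects of the lines differ was tested directly, as the RPMI8226 effect minus the MMS1 effect. It passed for 6 members: ATF5 was positive (1.45, 1.04 to 1.86, adjusted p = 0.000638), and SESN2 (-0.81), CTH (-1.12), SLC7A11 (-0.85), GARS1 (-0.62) and SLC3A2 (-0.54) were negative. Among all genes 2.63% were positive and 3.27% negative by that test. Of the 4944 genes above the upper quartile of signal 4.25% were positive and 7.32% negative, against 0 and 4 of the 32 members there. The SLC3A2 call was lost under 6 of 18 alternatives (adjusted p 0.0523 to 0.0575), among them leaving out MMS1 control replicate 1 or 2, RPMI8226 control replicate 2 or 3, or RPMI8226 miR-16 sponge replicate 2. For the remaining 5 genes that passed in MMS1 arrays the difference did not pass: CBS was at 0.35 (0.03 to 0.66), SLC7A1 at 0.31 (0.00 to 0.63), PHGDH at -0.32 (-0.60 to -0.03), SLC1A5 at 0.25 (-0.09 to 0.60) and IARS1 at 0.44 (0.16 to 0.73, adjusted p = 0.0772). The median difference was -0.17 over the members and 0.04 over all genes. Without the array with the low 18S signal, 6 members rose and 6 fell in MMS1 arrays, 0 and 1 in RPMI8226 arrays, and the difference was positive for 2 and negative for 5.

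A different picture appeared between the control arrays of the lines. RPMI8226 control arrays were above MMS1 control arrays for 25 of the 41 members and below for 1, ATF5, while 15 did not pass. Among all genes 6.52% were higher and 3.8% lower. Members are mostly bright, and bright genes pass more often: of the 4944 genes above the upper quartile 11.5% were higher and 8.92% lower, as against 20 and 0 of the 32 members there. The median difference was 0.43 log2 over the members and 0.03 over all genes. Calls were spread over the roles: 3 of 6 regulators were higher, 3 of 5 feedback outputs, 3 of 7 enzymes of asparagine, serine, glycine and folate, 3 of 4 of proline and transsulfuration, 6 of 8 transporters and 7 of 11 synthetases.

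The MMS1 control arrays stand in this comparison and in the MMS1 sponge comparison, so both results share them. SESN2, CTH, SLC7A11, GARS1 and PHGDH were above the MMS1 control arrays in both the MMS1 miR-16 sponge arrays (1.15, 1.05, 0.56, 0.65 and 0.52) and the RPMI8226 control arrays (1.17, 1.28, 2.01, 0.81 and 0.46). ATF5 was below them in both (-1.49 and -0.73). CBS, IARS1 and SLC1A5 fell with the miR-16 sponge in MMS1 arrays (-0.70, -0.43 and -0.43) and were higher in RPMI8226 control arrays (0.54, 0.44 and 0.42).

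The largest difference was that of the cystine exchanger SLC7A11, at 9.47, 9.68 and 9.52 in RPMI8226 control arrays, against 7.31, 7.52 and 7.79 in MMS1 control arrays, which is 2.01 log2 (1.74 to 2.29) or 4.04-fold (adjusted p = 4.16e-07). Dimmer SLC7A11 probe sets gave 1.87 and 0.80, and both passed. ALDH1L2, the mitochondrial enzyme that burns folate-bound formyl groups to carbon dioxide, read 6.62, 6.80 and 6.77 in RPMI8226 control arrays, against 4.93, 5.39 and 5.37 in MMS1 control arrays. It was 2.83-fold higher (1.5 log2, 1.19 to 1.81, adjusted p = 1.98e-05), although its MMS1 signals were in the lower range of the arrays and its other 2 probe sets gave 0.38 and 0.45. CTH, SLC1A4 and SESN2 followed, at 2.44-fold, 2.32-fold and 2.25-fold.

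Of the 8 transporters, 6 were higher in RPMI8226 control arrays, SLC7A11 among them. SLC1A4, for alanine, serine and cysteine, read 7.96, 8.05 and 8.07 in RPMI8226 control arrays, against 6.90, 6.77 and 6.77 in MMS1 control arrays (1.21 log2, 0.95 to 1.48, adjusted p = 3.21e-05). Its one probe set without a cross-hybridisation suffix gave 0.19 (adjusted p = 0.457), while the other 4 were higher. The leucine carrier SLC7A5 read 10.11, 10.06 and 9.99 in RPMI8226 control arrays, against 9.19, 8.94 and 9.09 in MMS1 control arrays (0.98, 0.73 to 1.22, adjusted p = 0.000103). SLC38A2, a sodium-coupled carrier induced by amino acid shortage, read 10.15, 10.19 and 10.10 in RPMI8226 control arrays, against 9.29, 9.24 and 9.39 in MMS1 control arrays (0.84, 0.63 to 1.05, adjusted p = 0.00011). None of these groups overlapped. SLC1A5 (0.42) and SLC6A9 (0.52) were also higher; the SLC1A5 call was lost without any 1 of the 6 control arrays (adjusted p 0.0586 to 0.134), and that of SLC6A9 without MMS1 control replicate 2 or RPMI8226 control replicate 1 or 3 (0.0514 to 0.0738). SLC7A1 (0.16) and the heavy chain SLC3A2 (0.23) did not pass.

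Among the synthetases GARS1 was 1.76-fold higher in RPMI8226 control arrays and WARS1, for tryptophan, 1.73-fold. WARS1 read 10.52, 10.59 and 10.60 there, against 9.86, 9.72 and 9.75 in MMS1 control arrays (0.79 log2, 0.57 to 1.02, adjusted p = 0.000313). CARS1, IARS1, LARS1, NARS1 and TARS1 were higher by 0.38 to 0.47 log2. The calls of CARS1 and LARS1 were close to the threshold (adjusted p = 0.0392 and 0.039) and were lost under 12 and 9 of 19 alternatives, without any 1 of the 6 control arrays for CARS1 and of 5 of them for LARS1; that of IARS1 was lost without MMS1 control replicate 1 (0.0545), and that of NARS1 without MMS1 control replicate 1 or 2 or RPMI8226 control replicate 2 (0.0509 to 0.0519). AARS1, EPRS1, SARS1 and YARS1 had estimates of 0.06 to 0.24 that did not pass.

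In serine synthesis PSAT1 read 10.57, 10.56 and 10.59 in RPMI8226 control arrays, against 9.86, 9.75 and 9.83 in MMS1 control arrays, a 1.69-fold difference (0.76 log2, 0.51 to 1.0, adjusted p = 0.000823). PHGDH was 1.37-fold higher, and PSPH, at 0.51 (0.17 to 0.85), had an adjusted p of 0.0703; it passed under 6 of 19 alternatives, and its probe set without a cross-hybridisation suffix gave 1.04 (adjusted p = 0.000242). ASNS differed by 0.23 (0.03 to 0.42) and did not pass (adjusted p = 0.176). PYCR1, the last enzyme of proline synthesis, was 1.35-fold higher and CBS 1.45-fold, whereas ALDH18A1, an earlier proline enzyme, was at -0.19 (-0.39 to 0.01).

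Of the regulators, CEBPG (0.63), ATF3 (0.52) and CEBPB (0.38) were higher in RPMI8226 control arrays, and ATF4 was at 0.18 (-0.01 to 0.38, adjusted p = 0.295). CEBPG is a C/EBP partner of ATF4. The CEBPB call was lost under 8 of 19 alternatives, with any 1 of the 6 control arrays left out among them, and that of ATF3 without MMS1 control replicate 2 (adjusted p = 0.0663) and with the mean over its probe sets (0.27, adjusted p = 0.173); its other 2 probe sets were at 0.38 and -0.09 and did not pass. ATF5 was 1.66-fold lower (adjusted p = 0.00405). CHAC1 read 7.26, 7.28 and 7.32 in RPMI8226 control arrays, against 6.91, 6.68 and 6.80 in MMS1 control arrays (0.48, adjusted p = 0.00712), and TRIB3 was at 0.40 (adjusted p = 0.0169), a call lost without any 1 control array other than MMS1 replicate 1 (0.053 to 0.0736). The number of members higher ranged from 17 to 26 when arrays were left out singly; it was 17 without MMS1 control replicate 2 and 26 without MMS1 miR-16 sponge replicate 1.

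The miR-16 sponge arrays gave a second look at the line difference, without sharing an array with the control comparison. Both comparisons took their spread from the same fit of all 12 arrays. The second look was added after the control comparison had been seen. RPMI8226 miR-16 sponge arrays were above MMS1 miR-16 sponge arrays for 21 members and below for 3 (ALDH18A1, SLC3A2 and NUPR1), where 12.2% of all genes were higher and 8.38% lower. Among the 4944 genes above the upper quartile of signal 17.6% were higher and 18.9% lower, against 17 and 2 of the 32 members there. Of the 21 members that were higher, 18 were also among the 25 of the control arrays, which is 85.7% of the first list and 72.0% of the second. These 25 are 61.0% of the measured members, and the overlap over all genes was not counted. ALDH1L2 (1.27), SLC7A11 (1.16), SLC1A4 (1.13), IARS1 (0.89), CBS (0.88) and WARS1 (0.86) led. The median over members was 0.34 log2, and 0.06 over all genes.

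Of the 11 genes that had moved with the sponge in MMS1 arrays, SESN2, SLC7A11, CBS, IARS1 and SLC1A5 were higher in RPMI8226 in both line comparisons. In miR-16 sponge arrays the SESN2 call was lost under 5 alternatives (adjusted p 0.0574 to 0.0922). SLC7A1 was higher in the miR-16 sponge arrays only (0.47, adjusted p = 0.00662), a call lost under 2 alternatives (0.539 and 0.761). Another SLC7A1 probe set was lower there (-0.54, adjusted p = 0.0325). CTH, at 7.16, 7.15 and 7.0 in RPMI8226 miR-16 sponge arrays and 7.16, 6.78 and 6.89 in MMS1 miR-16 sponge arrays, overlapped between the lines (0.16, -0.11 to 0.44), and GARS1 (0.20) and PHGDH (0.14) did not pass. ATF5 was higher in RPMI8226 miR-16 sponge arrays (0.72, adjusted p = 0.00249), the opposite sign from the control arrays (-0.73). SLC3A2 was lower (-0.31, adjusted p = 0.0252), a call lost without any 1 of the 3 RPMI8226 miR-16 sponge arrays. ATF4 did not pass (-0.09, -0.29 to 0.11).

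**Figure D4:**
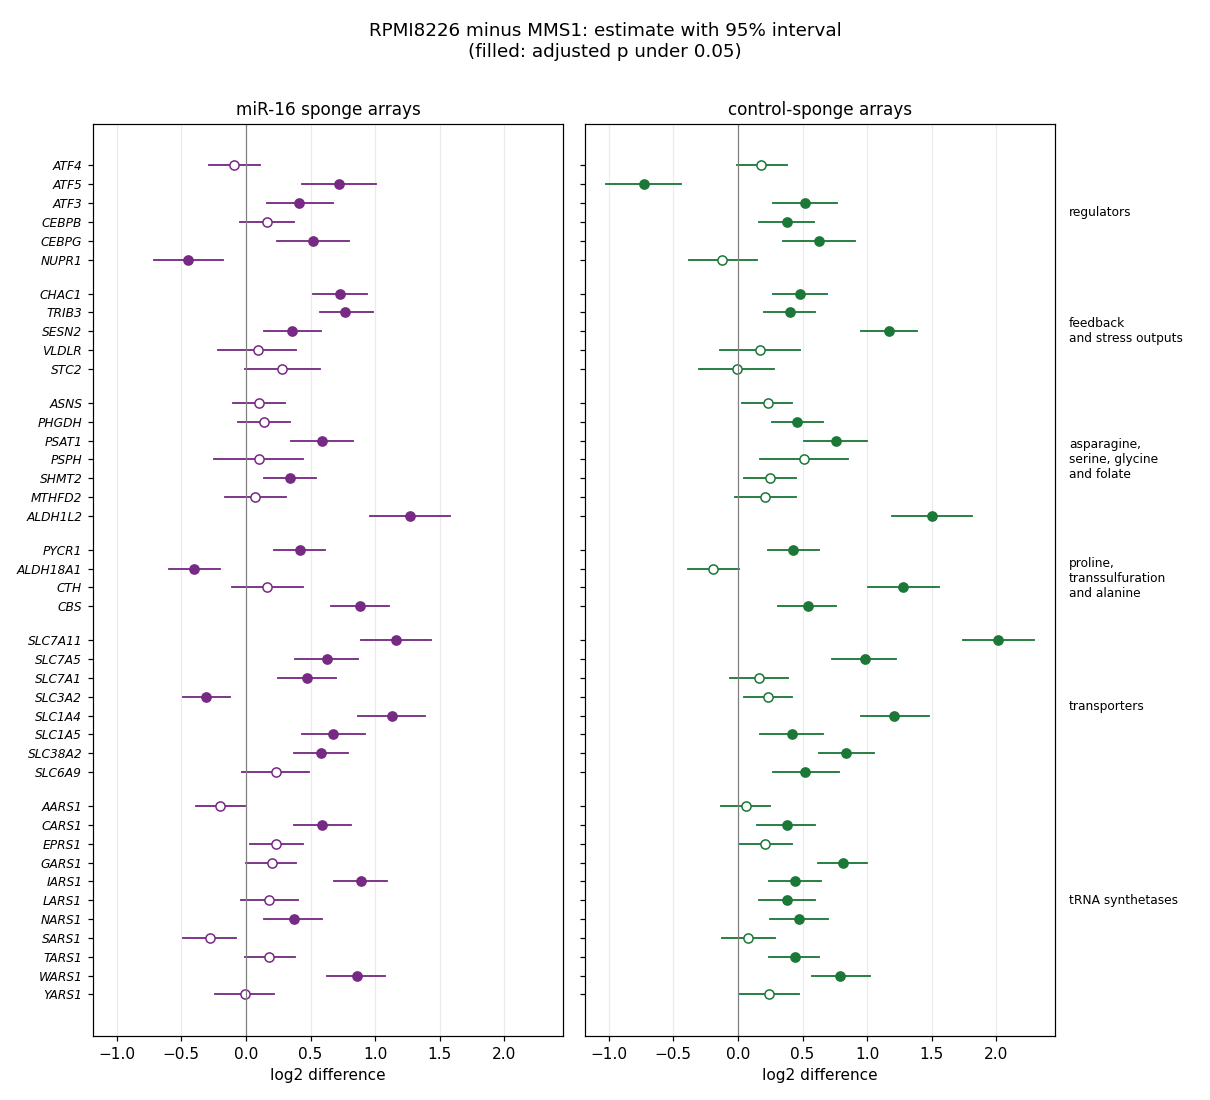
Estimated difference, RPMI8226 minus MMS1, in log2 units (x axis) for the 41 measured members by role, with 95% intervals, in miR-16 sponge arrays and in control-sponge arrays; filled points have an adjusted p under 0.05. Most filled points lie right of 0 in both panels (21 and 25), with SLC7A11 at 1.16 and 2.01 and ALDH1L2 at 1.27 and 1.5, and ATF5 changes side.

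Members with and without the response element core were both among those higher in RPMI8226 control arrays. In RPMI8226 control arrays 6 of the 10 measured members with the core were higher, with a median difference of 0.41 log2, and 15 of the 23 with a window but no core, with a median of 0.46. In the MMS1 sponge comparison 3 of 10 with the core passed (SLC3A2, SLC7A1 and IARS1) and 7 of 23 without it. These are descriptions of 8-letter matches in a 300-base window and carry no test.

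The steps ahead of ATF4 were taken from a list of 14 eIF2 kinases, phosphatase subunits and related genes. In MMS1 arrays 1 of them rose and 1 fell, where 4.34% of all genes rose and 8.08% fell. EIF2AK1, the heme-regulated kinase HRI, which is best known in red cell precursors, read 10.96, 10.71 and 10.59 in MMS1 miR-16 sponge arrays, against 10.35, 10.29 and 10.28 in MMS1 control arrays (0.45, 0.21 to 0.68, adjusted p = 0.0169). EIF2AK3, the endoplasmic reticulum kinase PERK, read 6.21, 5.94 and 5.89 in MMS1 miR-16 sponge arrays, against 6.46, 6.40 and 6.45 in MMS1 control arrays (-0.42, -0.65 to -0.19, adjusted p = 0.0223). Neither call was firm: EIF2AK1 lost it without MMS1 control replicate 2 or 3 (0.0554 and 0.062), EIF2AK3 without any 1 MMS1 control array or MMS1 miR-16 sponge replicate 2 or 3 (0.0531 to 0.0805), and both with the mean over their probe sets (0.652 and 0.715). The amino acid sensor EIF2AK4 (GCN2) did not pass (-0.19, -0.48 to 0.11), and its probe sets differed in sign: the one without a cross-hybridisation suffix gave 0.88 (adjusted p = 0.256). By limma 0 of the 14 passed between the control arrays of the lines, where 5 had an unadjusted p under 0.05. Among all genes 6.52% were higher and 3.8% lower in RPMI8226 control arrays.

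Of 11 measured further outputs of ATF4, 1 rose and 1 fell in MMS1 arrays, where 4.34% of all genes rose and 8.08% fell. Between the control arrays 3 were higher and 1 lower in RPMI8226 than in MMS1, where 6.52% of all genes were higher and 3.8% lower. DDIT3 (CHOP), a stress-induced C/EBP family factor that acts with ATF4, read 9.57, 9.73 and 9.79 in MMS1 miR-16 sponge arrays, against 9.05, 8.97 and 9.05 in MMS1 control arrays (0.67, 0.46 to 0.88, adjusted p = 0.000524). In RPMI8226 miR-16 sponge arrays it read 9.91, 9.94 and 9.88, against 9.79, 9.66 and 9.77 in RPMI8226 control arrays (0.17, -0.04 to 0.38). DDIT4, an mTORC1 inhibitor, fell by 0.35 in MMS1 arrays (adjusted p = 0.0373), a call lost under 9 of 19 alternatives, among them leaving out any 1 MMS1 control array. RIT1, a small GTPase gene, passed the test of the difference between sponge effects (-0.86, -1.21 to -0.51, adjusted p = 0.00758), which with the mean over its probe sets was -0.23 and did not pass (0.302). Its sponge estimates, -0.60 in RPMI8226 arrays (adjusted p = 0.0577, passing under 5 of 19 alternatives) and 0.26 in MMS1 arrays, did not pass, while it was lower in RPMI8226 than in MMS1 miR-16 sponge arrays (-1.03, adjusted p = 5.5e-05). DDIT3 (0.71), EIF4EBP1 (0.43) and DDIT4 (0.38) were higher in RPMI8226 control arrays, and the secreted stress factor GDF15 was lower (-0.39). The DDIT4 and GDF15 calls were lost under 7 and 6 of 19 alternatives, without MMS1 control replicate 1 or 3 or RPMI8226 control replicate 2 or 3 among them for both.

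Smaller shares of the neighbouring gene groups than of the members were higher in RPMI8226 control arrays. Of 7 other cytosolic synthetases 2 were higher and 1 lower, of 15 mitochondrial synthetases 1 was higher and 0 lower, of 18 other folate and amino acid enzymes 3 were higher and 1 lower, and of 13 other amino acid transporters 4 were higher and 0 lower. The shares higher were 28.6%, 6.67%, 16.7% and 30.8% in that order, against 61.0% of the members and 6.52% of all genes. Among all genes 3.8% were lower. Of these 4 shares, all but that of the mitochondrial synthetases were above the share of all genes, though each rests on few genes. Among the 4944 genes above the upper quartile of signal 11.5% were higher. The difference between these lists and the members was not tested. With the miR-16 sponge in MMS1 arrays the same 4 lists had 1, 0, 1 and 0 genes that rose and 1, 2, 3 and 2 that fell. Over all genes 4.34% rose and 8.08% fell in that comparison. VARS1, the valine synthetase, rose by 0.33 (adjusted p = 0.0388, lost under 13 of 19 alternatives), FARSA, a subunit for phenylalanine, fell by 0.43 (adjusted p = 0.00903), and the mitochondrial LARS2 and AARS2 fell by 0.51 and 0.39. The AARS2 call (adjusted p = 0.0307) was lost under 5 of 19 alternatives, without MMS1 control replicate 1 or 3 or MMS1 miR-16 sponge replicate 3 among them (up to 0.135). The difference between lines passed for VARS1 and RARS1, the arginine synthetase (both -0.60), the RARS1 call being lost under 10 alternatives. ASS1, which makes argininosuccinate for arginine synthesis, rose by 0.56 (adjusted p = 0.00219), and MAT2A, which makes the methyl donor S-adenosylmethionine, fell by 0.59 (adjusted p = 0.00305). PYCR3 and OAT, which act in proline and ornithine metabolism, fell by 0.92 and 0.46; the PYCR3 signals were near the floor, and the OAT call (adjusted p = 0.0205) was lost under 6 of 19 alternatives, without any 1 MMS1 control array or MMS1 miR-16 sponge replicate 2 or 3 among them (up to 0.0836). SLC38A1, a glutamine carrier, fell by 0.67 (adjusted p = 0.000467), and SLC6A6, the taurine carrier, by 0.69 (adjusted p = 0.00069); both calls were lost with the mean over probe sets (0.152 and 0.0731).

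Markers of other cell types moved in the same comparisons as these genes. In MMS1 arrays the miR-16 sponge came with 4 lower and 1 higher of 7 erythroid genes (ALAS2 at -2.51, HBZ at -1.94). It also came with 2 higher of 6 T cell genes (CD3D at 5.64 and CD7 at 0.84), while CD3E, CD3G, CD2 and CD5 did not pass. Of 5 epithelial genes 4 were higher (KRT8 at 2.6). Over all genes 4.34% rose and 8.08% fell in that comparison. The summed linear signal of the erythroid genes is mostly that of the brightest, HBE1 and HBZ. It was 24300 to 25800 in MMS1 miR-16 sponge arrays, against 41400 to 43100 in MMS1 control arrays. In RPMI8226 miR-16 sponge arrays it was 25200 to 25600, against 31000 to 31800 in RPMI8226 control arrays. Of the 7 erythroid genes only HBE1 passed in the RPMI8226 sponge comparison (-0.49, adjusted p = 0.046). The other 6 had estimates from -0.33 (GATA1) to 0.29 (ALAS2). The summed signal of the epithelial genes was 10100 to 10600 in MMS1 miR-16 sponge arrays, against 3770 to 4140 in MMS1 control arrays. Between the control arrays 2 epithelial genes were higher and 1 lower in RPMI8226, and 2 erythroid genes were lower. Among all genes 6.52% were higher and 3.8% lower there. The part of these markers in the changes of the amino acid response genes was not tested. None of the plasma cell, myeloid or fibroblast markers passed in the MMS1 sponge comparison, the RPMI8226 sponge comparison or the control comparison by limma; at most 3 genes of any of these lists had an unadjusted p under 0.05 in any of the 3 comparisons.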

How the data were processed

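Gene expression was measured on 12 single-colour Affymetrix arrays. The authors deposited log2 signals per probe set; how they were summarised is not known, and 54613 of 54675 probe sets, without 62 controls, were tested. The values were used as deposited. Probe sets were named through the platform annotation (41091 with 1 gene, 1801 with several, 11777 with none; symbols updated through RefSeq, 42 older ones kept), and each gene took its brightest single-gene probe set. One limma 3.58.1 model (R 4.3.3; lmFit, eBayes) over the 4 groups gave every difference, with Benjamini-Hochberg adjustment over all probe sets and a threshold of 0.05; the moderated variance used 4.92 prior and 8 residual degrees of freedom. The members and lists were chosen with earlier results of these data known. The genes named are the members, with every array for those that passed in a sponge comparison and for ATF4, ATF3, ATF5, ASNS and DDIT3, and up to 4 per neighbouring list that passed in a sponge comparison; EIF2AK4, EIF4EBP1 and GDF15, the markers quoted and the array values for other genes were chosen after their values were seen. The fit was tested on simulated data. Replicate numbers did not pair arrays: same-number residual correlations were -0.07 to 0.06. No array duplicated another. Precision is limited by 3 arrays a group. Promoters and miR-16 are RefSeq's (GRCh38.p14). Alternatives covered normalization, filter, probe-set choice, arrays fitted, prior, replicate block and leaving out each array.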

Additional observations from a re-analysis of the deposited data

Results flagged for a closer look

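The sponge effect differed between the lines, by the interaction test across all probe sets (RPMI8226 effect minus MMS1 effect, log2), for 6 members. Over all genes 2.63% were positive and 3.27% negative, and 4.25% and 7.32% of those above the upper quartile of signal. ATF5 differed by 1.45, with effects of -0.04 in RPMI8226 arrays and -1.49 in MMS1 arrays. SESN2 differed by -0.81 (0.34 in RPMI8226 arrays and 1.15 in MMS1 arrays), CTH by -1.12 (-0.08 and 1.05), SLC7A11 by -0.85 (-0.29 and 0.56), GARS1 by -0.62 (0.03 and 0.65) and SLC3A2 by -0.54 (-0.10 and 0.44). Among genes of the neighbouring lists PYCR3 differed by 0.90 (-0.02 in RPMI8226 arrays and -0.92 in MMS1 arrays), RIT1 by -0.86 (-0.60 and 0.26), VARS1 by -0.60 (-0.27 and 0.33) and RARS1 by -0.60 (-0.34 and 0.26).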

How the results depend on the processing

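With 3 arrays a group the 19 alternatives per comparison (18 for the difference of effects) moved some counts of members, and no called member changed sign in any of them; a median SE of 0.10 log2 on a member's difference limits what could pass. In MMS1 arrays the 6 that rose became 11 with only brighter probe sets and 12 with the mean over probe sets. They became 10 with an intensity trend in the prior. Shares of all genes under those settings are not given here for MMS1 arrays, so these shifts are not read as particular to the members. The 5 that fell became 3 with only the arrays of the comparison. Leaving out arrays singly gave 5 to 6 and 3 to 6. In RPMI8226 arrays the 0 that rose and 0 that fell became 2 and 2 with only brighter probe sets (TRIB3 and SESN2; CBS and SLC7A1) and 3 and 2 with the trend, and 0 to 0 and 0 to 1 without single arrays. For the difference of effects the 1 positive call became 3 with quantile normalization, 3 with only brighter probe sets, 4 with the mean and 3 with the trend, and the 5 negative became 9 with the trend; without single arrays they were 1 to 2 and 4 to 5. The control line difference gave 17 to 26 higher and 1 to 1 lower without single arrays, and the one in miR-16 sponge arrays 17 to 21 and 1 to 4; its 3 lower became 0 with only its own arrays and 5 with the trend. Over all genes, the 3 that rose and 40 that fell in RPMI8226 arrays became 89 and 481 with only brighter probe sets, 126 and 652 with the trend and 6 and 81 with the mean, 26 and 248 without MMS1 miR-16 sponge replicate 1, which enters through the shared spread, while 2 fell with only their own arrays and 13 with the block. The 858 and 1597 of MMS1 arrays became 536 and 1018 with only their own arrays, the 520 and 647 of the difference 921 and 1105 with brighter probe sets and 909 and 1200 with the trend, and the 2413 and 1657 of the line difference in miR-16 sponge arrays 1517 and 1066 with only their own. With the replicate block the counts of members were 6 and 5 in MMS1 arrays, 0 and 0 in RPMI8226 arrays, 1 and 5 for the difference and 21 and 1 between control arrays; numbers do not pair these arrays. The cause of these shifts was not tested.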
